A study of Mus musculus with 35 samples.

Results

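The 34 genes described here mark oligodendrocytes, the cells that wrap axons in myelin, and the precursor cells from which they form. They were the entries of the striatal count table whose gene symbol was on a list of 34 oligodendrocyte-lineage and myelin genes, and all 34 were found among 32863 genes kept. The list was drawn up by cell type, with earlier results of these data known. RNA came from the striatum of 35 mice, 1 library per mouse, in 4 groups. Htt+/+ Hdac2 WT mice (n = 8) carried normal huntingtin alleles with a CAG length of 7 and no Cre. HttQ111/+ Hdac2 WT mice (n = 7) carried 1 knock-in Huntington's disease allele with 110 to 140 CAG repeats and no Cre. Htt+/+ Hdac2 KO mice (n = 9) and HttQ111/+ Hdac2 KO mice (n = 11, 110 to 144 repeats) were homozygous for a floxed Hdac2 allele and carried the D9-Cre transgene, which is driven by part of the Ppp1r1b (DARPP-32) gene and acts in medium-spiny neurons (MSNs) from young adulthood. Hdac2 encodes a histone deacetylase. The labels call the mice without Cre Hdac2 wild type, while the sample sheet of the study lists floxed alleles without Cre for most of them. The mice were of both sexes, on a mainly C57BL/6J background, and between 21.71 and 23 weeks old.

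Oligodendrocyte precursors, which carry the PDGF receptor Pdgfra and the proteoglycan Cspg4 (NG2), pass through a newly formed stage marked by Gpr17, Enpp6 and Bcas1 before they make myelin. Olig1, Olig2, Sox10 and Myrf are the transcription factors of the lineage, and Myrf is needed for the switch to myelin gene expression. Mature cells then express the myelin proteins Mbp, Mobp, Mag and Mog and the enzymes that make myelin lipids. In the striatum myelin lies largely in the fibre bundles that cross between the medium-spiny neurons. Since D9-Cre acts in MSNs, oligodendrocytes in the Hdac2 KO mice keep their own Hdac2, whereas the HttQ111 allele is present in every cell.

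Libraries held between 50970712 and 77867348 counts on all genes other than spike-ins, and the lowest count of any member in any library was 303. Levels are given as CPM, a gene's count scaled to a library of the same fixed size after correction by the trimmed mean of M values (TMM). They are not corrected for gene length, so they compare libraries and not genes. In whole striatum, fewer oligodendrocytes and less RNA per oligodendrocyte cannot be told apart. Hdac2, deleted in MSNs only, ranged from 97.6 to 107 CPM in Htt+/+ Hdac2 WT and from 95.5 to 111 in HttQ111/+ Hdac2 WT, against 89.4 to 99.2 and 89.8 to 101 in the corresponding KO groups. Cre removes only some exons of Hdac2. The paper reports a marked loss of reads in those exons, and reads that join the exons on either side. These CPM count the whole gene, so they do not measure how far Hdac2 was lost. No Hdac2 WT mouse carried Cre, so Hdac2 deletion and the transgene cannot be told apart. RNA of WT and KO mice was mostly extracted on different dates. In Htt+/+ mice the genotypes shared only 27 May (3 WT and 1 KO library) and in HttQ111/+ mice only 25 May (2 WT and 1 KO library). Replicate 1 of the Htt+/+ Hdac2 KO group stood apart, with the highest value of all 35 libraries for 29 of the 34 genes, against 3.17% of the 17346 genes tested. Values without it are given beside the results it was found to change.

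The levels of the myelin genes lay in nearly the same range in all 4 groups. Mog, a protein of the outer myelin surface, ran from 87.4 to 125 CPM (median 104) in Htt+/+ Hdac2 WT and from 86.3 to 128 (median 108) in HttQ111/+ Hdac2 WT. In the Hdac2 KO groups Mog ran from 94.0 to 164 (median 106) in Htt+/+ and from 93.3 to 123 (median 109.9) in HttQ111/+ mice. The groups overlapped almost entirely, and the 164 CPM belonged to replicate 1 of Htt+/+ Hdac2 KO. Mbp, the main protein of the inner myelin leaflet, spanned 1086 to 1471 CPM (median 1358.3), 1113 to 1752 (median 1332), 1167 to 1861 (median 1429) and 1057 to 1634 (median 1355.6) in Htt+/+ Hdac2 WT, HttQ111/+ Hdac2 WT, Htt+/+ Hdac2 KO and HttQ111/+ Hdac2 KO striata, in that order. In the same order Mobp, another compact myelin protein, spanned 1566 to 1971.7 CPM (median 1891), 1426 to 2250.2 (median 1776), 1449 to 2550.5 (median 1872) and 1243 to 2021 (median 1754). Neither gene separated any pair of groups. Cnp, an enzyme of non-compact myelin whose interval overlaps Dnajc7 on the other strand, spanned 499.8 to 619 CPM (median 535), 475 to 612 (median 541), 493.3 to 742 (median 566) and 472 to 623 (median 561). Opalin, a membrane protein of myelinating cells, spanned 25.0 to 49.8 (median 33.7), 34.4 to 50.4 (median 38.3), 27.1 to 60.6 (median 38.2) and 26.7 to 46.5 (median 38.7). Of the 34 members, Opalin had the widest spread within groups, with a standard deviation of 0.27 on the log2 scale, above 91.2% of all genes.

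Transcription factors and precursor genes likewise overlapped between all groups. Sox10 ran from 47.0 to 64.4 CPM (median 53.7) in Htt+/+ Hdac2 WT, 48.0 to 60.2 (median 58.3) in HttQ111/+ Hdac2 WT, 37.2 to 78.5 (median 56.8) in Htt+/+ Hdac2 KO and 44.8 to 68.6 (median 61.2) in HttQ111/+ Hdac2 KO. Olig2, in the same order, ran from 16.2 to 26.3 (median 23.2), 18.3 to 28.6 (median 23.0), 20.6 to 30.7 (median 24.8) and 19.6 to 28.3 (median 25.6). Sox10 spread widest in the Htt+/+ Hdac2 KO group, which held both its lowest and its highest value. Pdgfra ran from 60.5 to 76.8 (median 64.1), 61.6 to 77.3 (median 68.8), 65.2 to 86.1 (median 70.0) and 61.7 to 77.2 (median 69.9). Cspg4 ran from 15.97 to 22.0 (median 19.1), 17.8 to 23.3 (median 19.0), 18.4 to 25.0 (median 22.0) and 13.6 to 25.1 (median 20.6). Medians of these precursor genes thus differed between groups by less than the range within any group. Gpr17, a receptor of newly formed cells, ran from 44.6 to 67.5 (median 53.6), 42.1 to 58.1 (median 48.1), 45.9 to 69.0 (median 53.7) and 39.96 to 65.8 (median 57.8). Enpp6, a choline phosphodiesterase of the same stage, ran from 12.2 to 17.6 (median 13.1), 13.3 to 19.5 (median 16.7), 12.6 to 23.8 (median 14.9) and 14.6 to 19.8 (median 17.4).

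Gpd1, cytosolic glycerol-3-phosphate dehydrogenase, which links glycolysis to glycerol lipid synthesis, was the single member called in any comparison. That holds for the fit to all 35 libraries with surrogate variables, and other settings called further members. The study had already reported Gpd1, from these same libraries, as changed by the HttQ111 allele and by the Hdac2 KO in HttQ111 mice. For the HttQ111 allele, it also listed Gpd1 among genes changed in the same direction in separate striata of Langfelder et al., after adjustment for multiple testing. Gpd1 lies at chr15:99717515-99723792 (GRCm38). Htt+/+ Hdac2 WT striata held 64.3, 67.0, 68.2, 68.6, 72.8, 76.7, 79.3 and 81.1 CPM. HttQ111/+ Hdac2 WT striata held 46.4, 47.5, 47.7, 57.6, 59.5, 65.8 and 66.4. The Htt+/+ and HttQ111/+ Hdac2 WT groups overlapped by the upper pair of HttQ111/+ values. The 3 lowest HttQ111/+ values came from ID series V (the letter in the mouse identifier), with 131 to 140 CAG repeats. Series A and Z mice of this group held 57.6 to 66.4 CPM and had 110 to 113 repeats. Htt+/+ Hdac2 WT mice of series V held 64.3 to 76.7 CPM. In HttQ111/+ Hdac2 KO, series V held 33.9 to 45.7, A 44.9 to 48.5 and Z 41.7 to 44.3. ID series and repeat length cannot be told apart here. Htt+/+ Hdac2 KO striata ran from 40.4 to 54.3 (median 48.6), wholly below Htt+/+ Hdac2 WT. HttQ111/+ Hdac2 KO striata ran from 33.9 to 48.5 (median 42.6) and overlapped the lower part of HttQ111/+ Hdac2 WT. Means were 72.3 ± 6.19 CPM (SD, n = 8), 55.9 ± 8.67 (SD, n = 7), 48.1 ± 4.18 (SD, n = 9) and 42.0 ± 4.69 (SD, n = 11) in Htt+/+ Hdac2 WT, HttQ111/+ Hdac2 WT, Htt+/+ Hdac2 KO and HttQ111/+ Hdac2 KO.

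**Figure D1:**
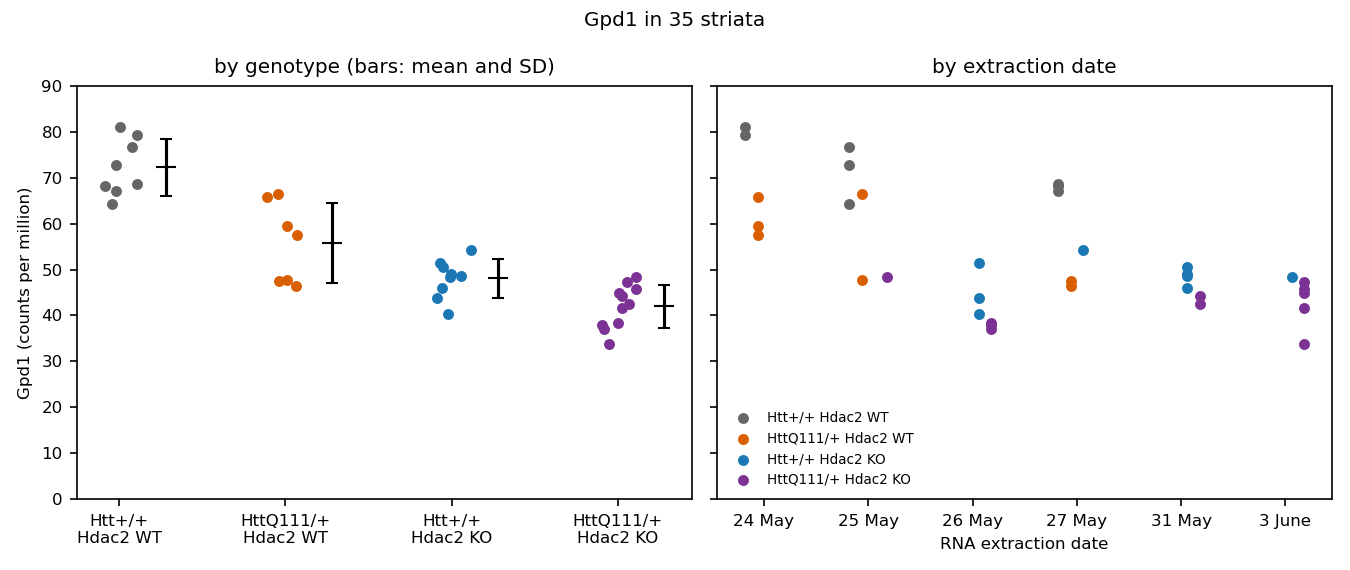
Gpd1 in CPM (vertical axis) in each of 35 striata, by genotype group (left, with mean and SD beside the points) and by RNA extraction date (right). Htt+/+ Hdac2 WT libraries lie between 64.3 and 81.1 and the Htt+/+ Hdac2 KO libraries between 40.4 and 54.3, and few dates hold both Hdac2 genotypes.

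The MSN-specific Hdac2 KO was compared first in Htt+/+ mice, to ask how genes that mark cells keeping Hdac2 differed in its presence. Whole striatum holds RNA of all its cells, MSNs included, so which cells a difference came from was not tested. Gpd1 was lower (log2 fold change -0.63 ± 0.062 SE, edgeR quasi-likelihood adjusted p = 9.83e-09). It was the single member called at an adjusted p under 0.05, against 17.8% of the 17126 genes tested (8.79% lower). Across 16 other settings its log2 fold change lay between -0.66 and -0.33 (edgeR or DESeq2 adjusted p from 1.4e-19 to 0.0615). None of the other 33 members passed, and their log2 fold changes lay between -0.04 and 0.12, with SE from 0.041 to 0.098. At an unadjusted p under 0.05, Gpd1 was again the sole member, against 29.0% of all genes. Ranges of CPM did not overlap for Gpd1 alone among the members, against 4.64% of all genes. The fit to these 2 groups alone called 14 members, 13 of them higher in Hdac2 KO (Fa2h by 0.25, Olig2 by 0.26, Pdgfra by 0.13 on the log2 scale). The same fit without replicate 1 of Htt+/+ Hdac2 KO called Gpd1 and no other member. With no surrogate variables 3 members were called (Fa2h, Gpd1 and Olig1), and without that library 1 (Gpd1).

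By role, none of the 12 genes of compact myelin and its adhesion was called in Htt+/+ mice, and their median log2 difference was 0.07. Of 13 genes of myelin enzymes and metabolism, which include the carbonic anhydrase Car2, the iron carrier Trf and the galactolipid enzyme Ugt8a, 1 (Gpd1) was called, with a median of 0.08. Of the 4 transcription factors, 2 precursor genes and 3 genes of newly formed cells none was called. Over all 34 the median was 0.07 and 29 were above 0, beside a median of -0.001 over all genes. Without replicate 1 of Htt+/+ Hdac2 KO the members' median was 0.01 and 19 were above 0.

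In HttQ111/+ mice Gpd1 was also lower in Hdac2 KO striata (log2 fold change -0.39 ± 0.055 SE, edgeR adjusted p = 6.44e-06), and it was again the single member called, against 16.5% of 17169 genes (8.86% lower). Across 15 other settings its log2 fold change lay between -0.43 and -0.13 (edgeR or DESeq2 adjusted p from 6.81e-10 to 0.604). The next member was Cryab, a small heat shock protein of oligodendrocytes, with a difference of 0.19 ± 0.068 SE (edgeR adjusted p = 0.0529). Ermn, a cytoskeletal protein of myelin, differed by 0.17 ± 0.070 SE (edgeR adjusted p = 0.1004). At an unadjusted p under 0.05 these 3 were the members that passed, against 28.1% of genes. No member had ranges of CPM that did not overlap, against 1.42% of genes. The median over members was 0.03, with 23 of 34 above 0. Cryab was called in 5 of the 15 other settings, and with extraction date as covariate its difference was -0.001.

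Gpd1 did not keep its call for the Hdac2 KO when extraction date took the place of the surrogate variables. Its log2 fold change was then -0.33 (edgeR adjusted p = 0.0615) in Htt+/+ and -0.13 (edgeR adjusted p = 0.604) in HttQ111/+ mice. On 27 May the 3 Htt+/+ Hdac2 WT libraries held 67.0 to 68.6 CPM and the 1 Hdac2 KO library 54.3. On 25 May the 2 HttQ111/+ Hdac2 WT libraries held 47.7 and 66.4 CPM and the 1 Hdac2 KO library 48.5. Extraction date nearly followed Hdac2 genotype, so their parts in the lower Gpd1 level cannot be told apart outside these few libraries.

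The effect of the HttQ111 allele was compared first in Hdac2 WT mice. Gpd1 was lower in HttQ111/+ striata (log2 fold change -0.36 ± 0.059 SE, edgeR adjusted p = 0.00413). It was 1 of 69 genes called, which were 0.403% of 17133 tested (0.222% lower), and no other member was called. Within dates, mean Gpd1 was 80.2 against 61.0 CPM on 24 May, 71.3 against 57.1 on 25 May and 67.9 against 47.0 on 27 May in Htt+/+ and HttQ111/+ mice, respectively, with 2 or 3 mice in each group on each date. HttQ111/+ was lower on all 3 dates, and with extraction date as covariate the call was kept. The call was lost with the replicate number as a block (log2 fold change -0.35, edgeR adjusted p = 0.0772), with only these 2 groups (-0.30, edgeR adjusted p = 0.143) and in males alone (-0.39, edgeR adjusted p = 0.0505), over a range of edgeR or DESeq2 adjusted p from 1.75e-05 to 0.143 in 15 other settings. The ranges of this pair of groups did not overlap for 0.138% of all genes and for no member. Markers of MSNs moved in the same libraries: 11 genes summed to between 8429 and 9640 CPM in Htt+/+ Hdac2 WT and between 6183 and 8363 in HttQ111/+ Hdac2 WT, with none at 0. Their part in the Gpd1 difference was not tested.

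The other 33 members were not called in HttQ111/+ Hdac2 WT striata by the fit with surrogate variables over all libraries. Car2 was lower by 0.16 ± 0.068 SE and Ugt8a by 0.15 ± 0.074 SE on the log2 scale, at edgeR adjusted p = 0.372 and 0.455. With Gpd1 these were the 3 members at an unadjusted p under 0.05, against 10.9% of genes. The median of the 34 was -0.06, with 7 above 0. Its direction depended on the model, since it was 0.03 with 22 above 0 when no surrogate variables were used. Without the mice of ID series A it was 0.10 with 29 above 0, and Enpp6 and Tmem88b were called higher. In males only it was -0.10 with 3 above 0. With ID series as covariate Gpr17 was called lower.

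In Hdac2 KO mice no member was called between HttQ111/+ and Htt+/+ striata by edgeR, and 1 gene in all (0.00584% of 17110). Gpd1 differed by -0.12 ± 0.047 SE (edgeR adjusted p = 0.524). Within dates, its mean in Htt+/+ and HttQ111/+ mice was 45.2 against 37.7 CPM on 26 May and 48.6 against 43.4 on 31 May. On 3 June it was 48.4 in the 1 Htt+/+ library against a mean of 42.7 in 5 HttQ111/+ libraries. HttQ111/+ was thus lower on each shared date, as in Hdac2 WT mice. At an unadjusted p under 0.05, 10 members had a negative log2 fold change in HttQ111/+ (Cnp, Gpd1, Mog, Opalin, Gsn, Car2, Cldn11, Tspan2, Ugt8a and Fa2h), against 7.52% of genes in either direction. Tspan2, a tetraspanin of myelin, had the lowest adjusted p of these (log2 fold change -0.17 ± 0.046 SE, edgeR adjusted p = 0.206). These fold changes are adjusted for surrogate variables. Median CPM was higher in HttQ111/+ for Opalin (38.7 against 38.2) and Mog (109.9 against 106), and lower for the others named. With no surrogate variables 2 members had an unadjusted p under 0.05. Without replicate 1 of Htt+/+ Hdac2 KO 2 members had an unadjusted p under 0.05, and the median over members changed from -0.07 to 0.03. DESeq2 with the same surrogate variables also called no member, with 9 at an unadjusted p under 0.05.

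**Figure D2:**
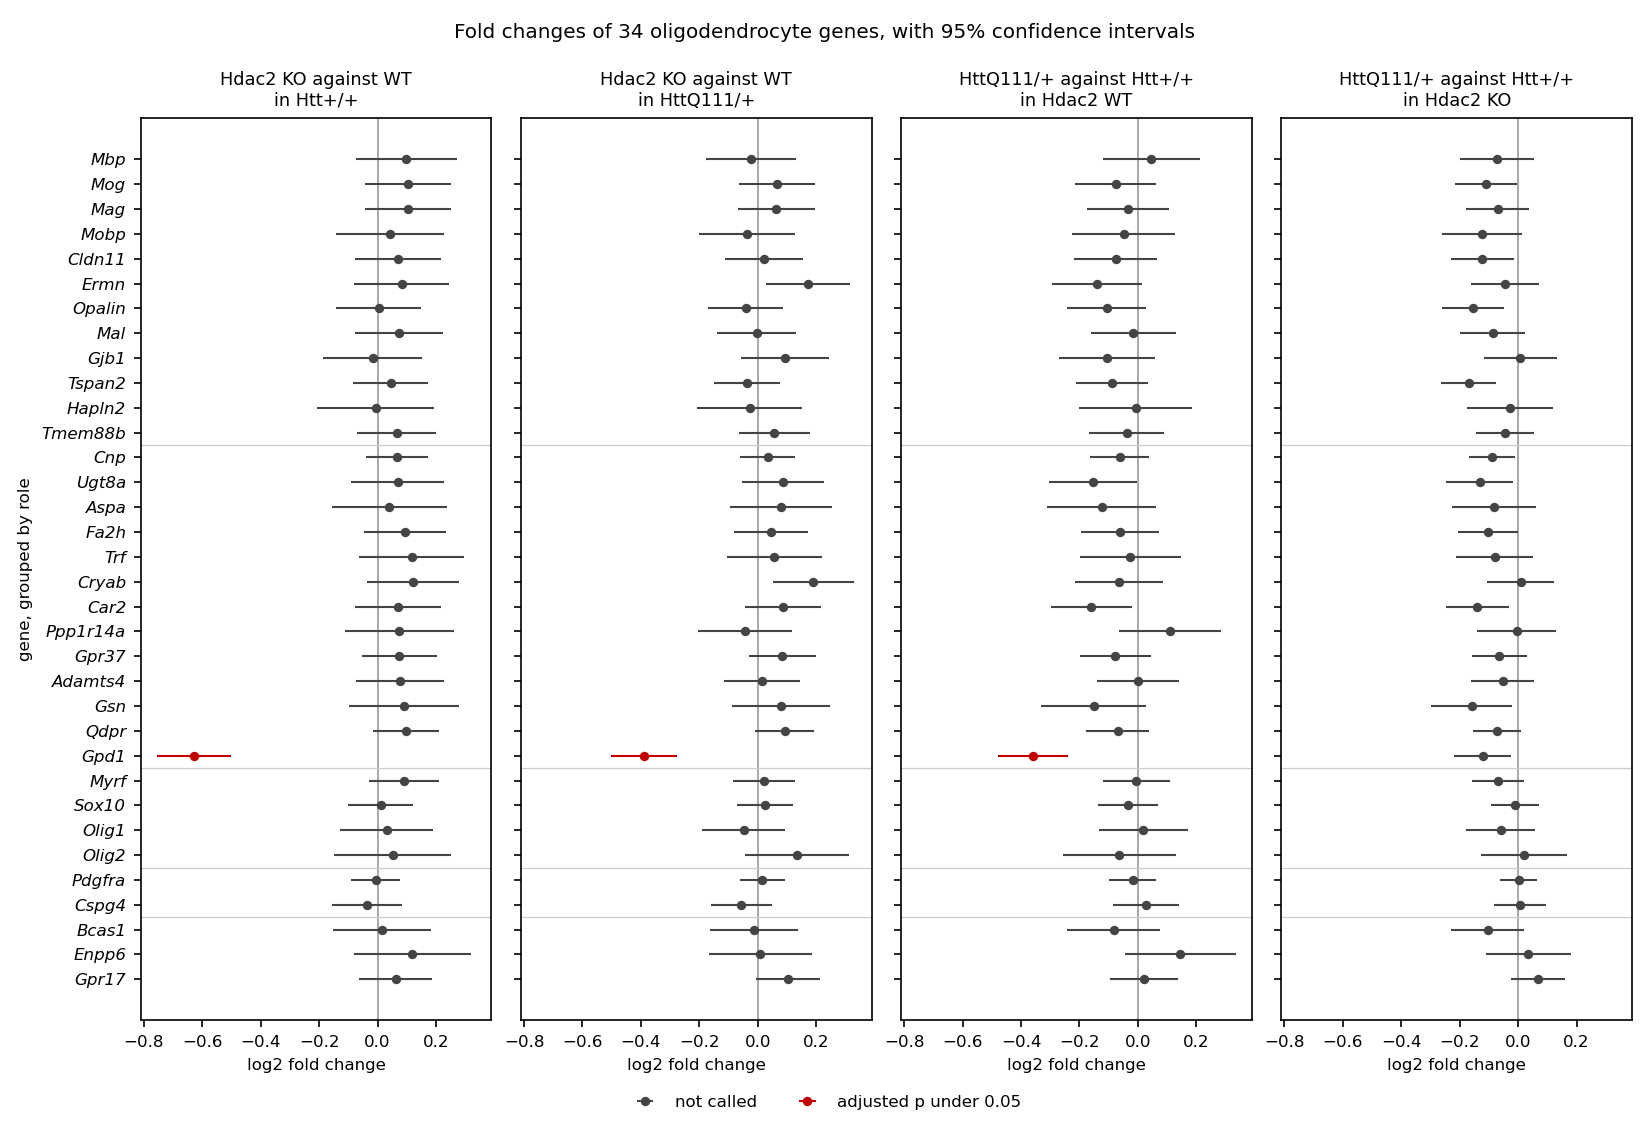
Log2 fold change of each of 34 genes (horizontal axis, points) with its 95% confidence interval (bars) in the 4 comparisons, genes ordered by role. Gpd1 is the single gene called in the first 3 panels, at -0.63, -0.39 and -0.36, and none is called in the fourth.

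The test of whether the Hdac2 KO and HttQ111 effects depend on each other called no member by edgeR, and 1 gene in all (0.00577% of 17346). DESeq2 called no member either. Gpd1 had the lowest p of the members, with an interaction of 0.24 ± 0.074 SE (edgeR unadjusted p = 0.00333, adjusted p = 0.600). It was the single member at an unadjusted p under 0.05, against 5.63% of genes. The log2 fold change of Gpd1 with the HttQ111 allele was smaller in size in Hdac2 KO (-0.12) than in WT mice (-0.36), and this difference was not called.

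The fit with surrogate variables set bounds on what could have differed under that model. Over the 4 comparisons between groups, the 95% intervals of the 33 members other than Gpd1 reached no lower than -0.33 (Gsn, gelsolin, which severs actin) and no higher than 0.34 (Enpp6) on the log2 scale, both in HttQ111/+ against Htt+/+ Hdac2 WT mice. For Pdgfra the intervals were -0.09 to 0.08 and -0.06 to 0.09 for the Hdac2 KO in Htt+/+ and HttQ111/+ mice. For Mog they were -0.04 to 0.25 and -0.06 to 0.20. These intervals are from the fit with surrogate variables, are not adjusted for the number of genes and leave smaller differences undetected. They did not hold in every fit. With only the 2 groups of Htt+/+ mice, Pdgfra differed by 0.13 ± 0.049 SE for the Hdac2 KO, above its interval here. Without replicate 1 of Htt+/+ Hdac2 KO that fit did not call Pdgfra.

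Within groups, the myelin genes varied together from mouse to mouse, with lower correlations for the precursor genes. Each value was taken as log2(CPM + 0.5) minus its group mean. Of the 33 members other than Mog, 26 had Pearson's r with Mog over 0.5 across the 35 libraries, as did 2.02% of all genes. Without replicate 1 of Htt+/+ Hdac2 KO the count was 23, against 1.55% of all genes. Mag (0.94), Cnp (0.92), Gsn (0.91) and Trf (0.87) were closest. Olig2 (0.20), Pdgfra (0.18), Gpr17 (0.07) and Cspg4 (-0.02) were farthest, as was Gpd1 (0.28). All points share the library and its depth, so these values are descriptions. The median within-group standard deviation was 0.18 for members and 0.14 for all genes.

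**Figure D3:**
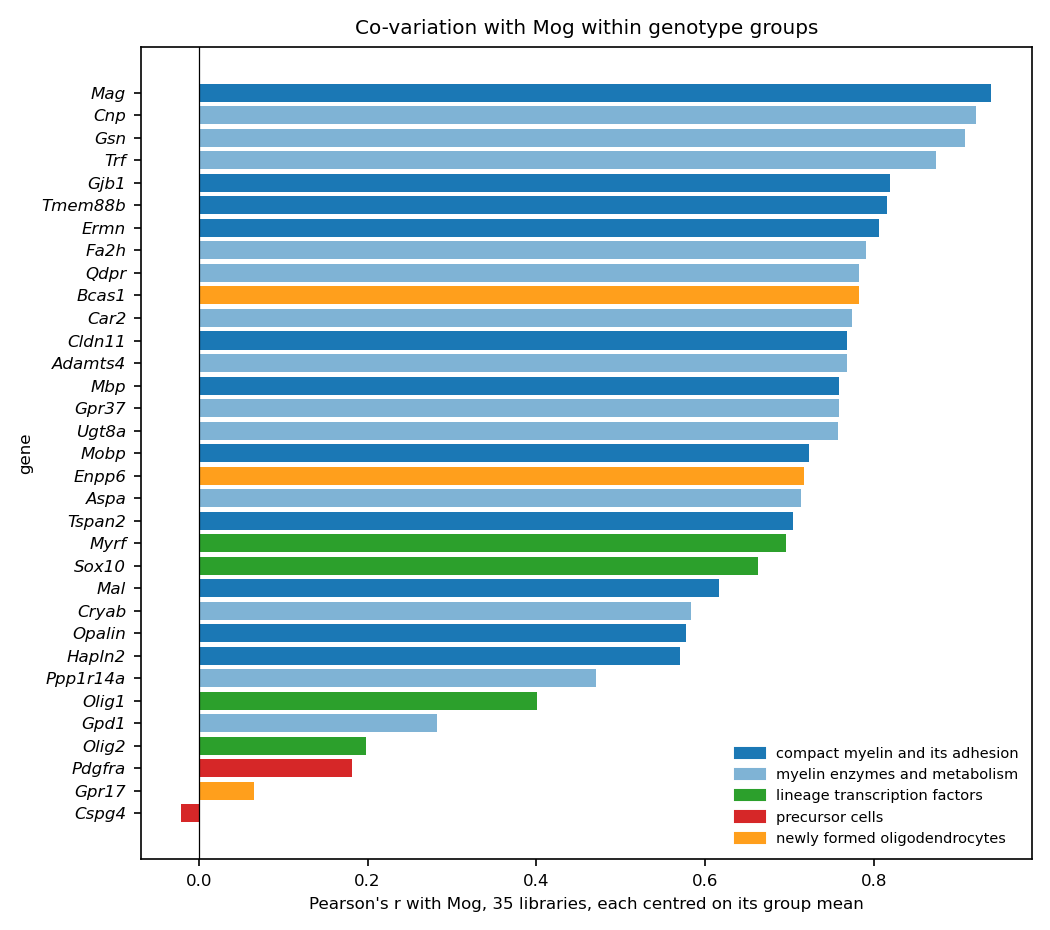
Pearson's r of each of 33 genes with Mog across 35 libraries, each gene centred on its group mean (horizontal axis), coloured by role. Mag has the highest r (0.94), and Gpr17, Pdgfra and Cspg4 lie between -0.02 and 0.18.

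Of 8 pairs tested by permutation within groups, 4 were called after Benjamini-Hochberg adjustment for Pearson's r. Mog with Gsn had r = 0.91 (permutation p = 1e-05, the smallest the permutations can give, adjusted p = 4e-05) and Spearman's rho = 0.85 (permutation p = 1e-05, adjusted p = 8e-05). Mog with Mobp had r = 0.72 (permutation p = 1e-05, adjusted p = 4e-05) and rho = 0.64 (permutation p = 6e-05, adjusted p = 0.00024). Mog with Sox10 had r = 0.66 (permutation p = 0.00016, adjusted p = 0.000427) and rho = 0.57 (permutation p = 0.00051, adjusted p = 0.00136). Mog with Opalin had r = 0.58 (permutation p = 0.00141, adjusted p = 0.00282) and rho = 0.38 (permutation p = 0.0296, adjusted p = 0.0592), so its rank correlation did not pass. The pairs not called were Mog with Gpr17 (r = 0.07, rho = 0.11), with Pdgfra (0.18 and 0.17), with Slc17a7, a cortical neuron transporter (-0.05 and -0.05), and with Ppp1r1b, the MSN gene that drives D9-Cre (-0.22 and -0.25), and their permutation p adjusted for Pearson's r lay from 0.371 to 0.809 and for rho from 0.254 to 0.782.

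Without the 2 libraries farthest from the Mog median, r was 0.81 for Gsn, 0.63 for Mobp, 0.52 for Sox10 and 0.38 for Opalin. Without replicate 1 of Htt+/+ Hdac2 KO alone it was 0.84 for Gsn, 0.66 for Mobp, 0.54 for Sox10 and 0.41 for Opalin. Centred within group and extraction date (32 libraries), r was 0.80 for Gsn, 0.71 for Mobp, 0.44 for Sox10 and 0.24 for Opalin. The relation of Mog to Gsn and Mobp was thus seen within dates, and that to Opalin was weaker there.

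The sequence upstream of the gene start is shown for Mog and Cnp, which varied together, and for Pdgfra, which followed Mog little. Each window covers bases 250 to 51 before the RefSeq start (GRCm38.p6), 5′ to 3′ on the strand of the gene, and capitals mark ACAAAG or its reverse complement CTTTGT, a form of the core that SOX proteins bind.
Mog, chr17:37023449-37023648, minus strand: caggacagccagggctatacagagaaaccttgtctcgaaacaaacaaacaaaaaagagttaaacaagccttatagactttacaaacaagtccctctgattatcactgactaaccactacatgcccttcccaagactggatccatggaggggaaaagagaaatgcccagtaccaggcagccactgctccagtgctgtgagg
Cnp, chr11:100574689-100574888, plus strand: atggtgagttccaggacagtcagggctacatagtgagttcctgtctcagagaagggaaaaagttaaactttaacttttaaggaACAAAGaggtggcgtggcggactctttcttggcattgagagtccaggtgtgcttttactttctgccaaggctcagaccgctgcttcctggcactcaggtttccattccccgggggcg
Pdgfra, chr5:75152001-75152200, plus strand: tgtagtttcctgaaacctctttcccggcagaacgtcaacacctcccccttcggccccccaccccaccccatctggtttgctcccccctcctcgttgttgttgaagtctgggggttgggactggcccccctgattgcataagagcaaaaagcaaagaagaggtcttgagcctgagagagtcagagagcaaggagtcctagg
The 6 letters occurred once in the Cnp window and not in those of Mog and Pdgfra. Promoter sequences matched 22 of the 34 members, with 30 starts. The letters, on either strand, were found in 7 of these 30 windows (23.3%, genes Cnp, Gjb1, Mag, Mobp and Opalin) and in 13.6% of all 32851 windows of the same length. A match of letters does not show that a factor binds.

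Replicate 1 of Htt+/+ Hdac2 KO, a male, held 273 CPM of Ermn and 132 of Gsn, against medians of 159 and 76.0 in the other 8 libraries of its group, ratios of 1.72 and 1.74. Across the members the ratio ran from 0.946 (Cspg4) to 1.74 (Gsn), with a median of 1.39. Pdgfra (1.09), Cspg4 (0.946), Gpr17 (0.983) and Gpd1 (0.992) departed little from the other libraries. The summed level of 8 astrocyte markers was 2353 CPM in this library, the lowest of its group (up to 2956), and that of 8 cortical projection neuron markers was 39.7, also the lowest. The high values were thus spread over myelin genes, transcription factors such as Sox10 (1.44) and the newly formed cell genes Enpp6 (1.60) and Bcas1 (1.43). This library was the only one of its group extracted on 3 June and the only one of ID series A. Within its group, mouse, date and series cannot be told apart.

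**Figure D4:**
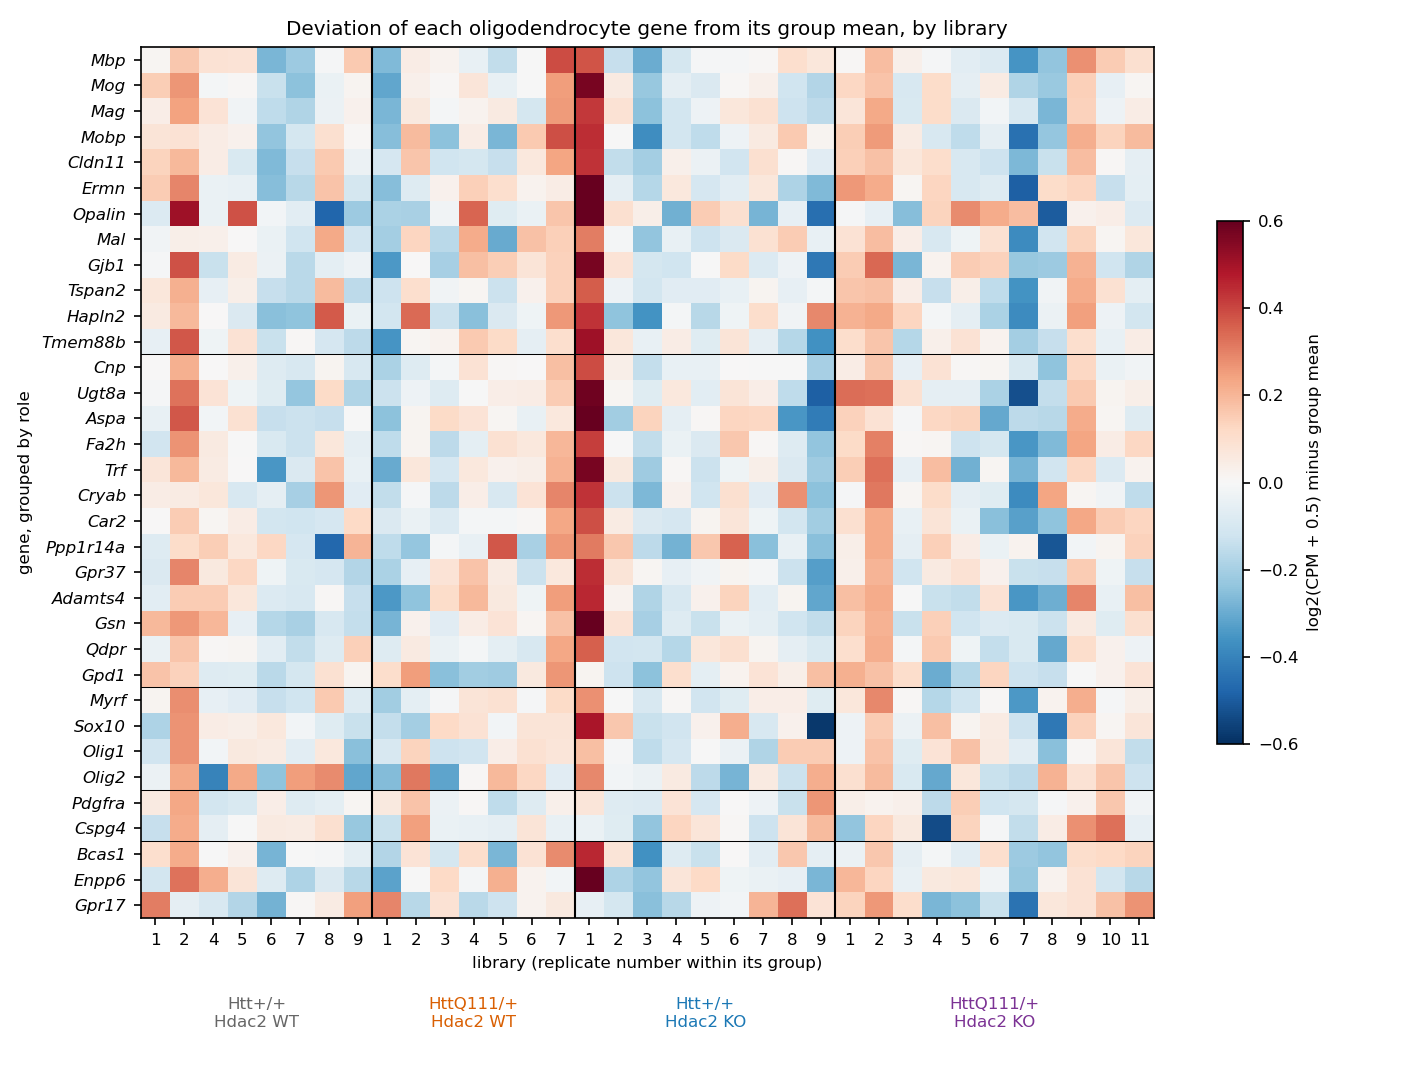
Departure of each of 34 genes (rows, by role) from its group mean in log2(CPM + 0.5), for each of 35 libraries (columns, by group and replicate number), red above and blue below, with colours at their end from 0.6. The column of Htt+/+ Hdac2 KO replicate 1 is red in most rows but near 0 for Gpd1 and Gpr17, whose ratios to the other libraries are 0.992 and 0.983.

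Further genes of the lineage and of myelin lipid synthesis were counted from lists drawn up by function. Of 38 further oligodendrocyte-lineage genes tested, 1 was called for the Hdac2 KO in Htt+/+ mice and 2 in HttQ111/+ mice, all lower, against 17.8% and 16.5% of all genes called (8.79% and 8.86% lower). Gamt, which makes creatine, was lower by 0.21 ± 0.069 SE (edgeR adjusted p = 0.0277) and by 0.18 ± 0.062 SE (edgeR adjusted p = 0.0443), respectively, on the log2 scale. Tnr, an extracellular matrix protein, was lower in HttQ111/+ Hdac2 KO by 0.19 ± 0.049 SE (edgeR adjusted p = 0.00813). Gamt was called in 6 of 16 other settings in Htt+/+ and 3 of 15 in HttQ111/+ mice, and Tnr in 7 of 15. Without replicate 1 of Htt+/+ Hdac2 KO Gamt was not called in Htt+/+ (-0.19, edgeR adjusted p = 0.058) or HttQ111/+ mice (-0.14, edgeR adjusted p = 0.0771). Next came genes not called by edgeR, the transcription factor Sox8 (0.17 and 0.13) and, in Htt+/+ mice, Ndrg1 (0.20). The medians of the list were 0.08 in Htt+/+ and 0.05 in HttQ111/+ mice.

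Of 15 genes of myelin lipid synthesis, 2 were called in Htt+/+ Hdac2 KO, both higher, against 17.8% of all genes called in either direction. Dhcr7, the last enzyme of one branch of cholesterol synthesis, rose by 0.29 ± 0.070 SE (edgeR adjusted p = 0.0030), and Degs1, a ceramide enzyme, by 0.11 ± 0.031 SE (edgeR adjusted p = 0.0133). Dhcr7 kept its call in 15 of 16 other settings and lost it with extraction date (0.07, edgeR adjusted p = 0.738). Degs1 kept its call in 6 of 16, and without replicate 1 of Htt+/+ Hdac2 KO it was not called (0.05, edgeR adjusted p = 0.385). The desaturase Scd1 followed at 0.18 ± 0.066 SE (edgeR adjusted p = 0.0597). In HttQ111/+ Hdac2 KO striata 2 genes of this list were called higher and 1 lower, against 16.5% of all genes called in either direction. Degs1 rose by 0.10 ± 0.027 SE (edgeR adjusted p = 0.0111) and Sptlc2, a subunit of serine palmitoyltransferase, by 0.11 ± 0.037 SE (edgeR adjusted p = 0.0418). These calls were kept in 6 and 11 of 15 other settings, respectively. Many of these genes are also expressed by neurons and astrocytes. Of the HttQ111 comparisons and the interaction, none called a gene of either list by edgeR. The lowest adjusted p of edgeR there were those of Il33 (0.385, log2 difference -0.13) and Nkx2-2 (0.393, -0.24), and Hmgcs1 (0.485, -0.11) among lipid genes.

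**Figure D5:**
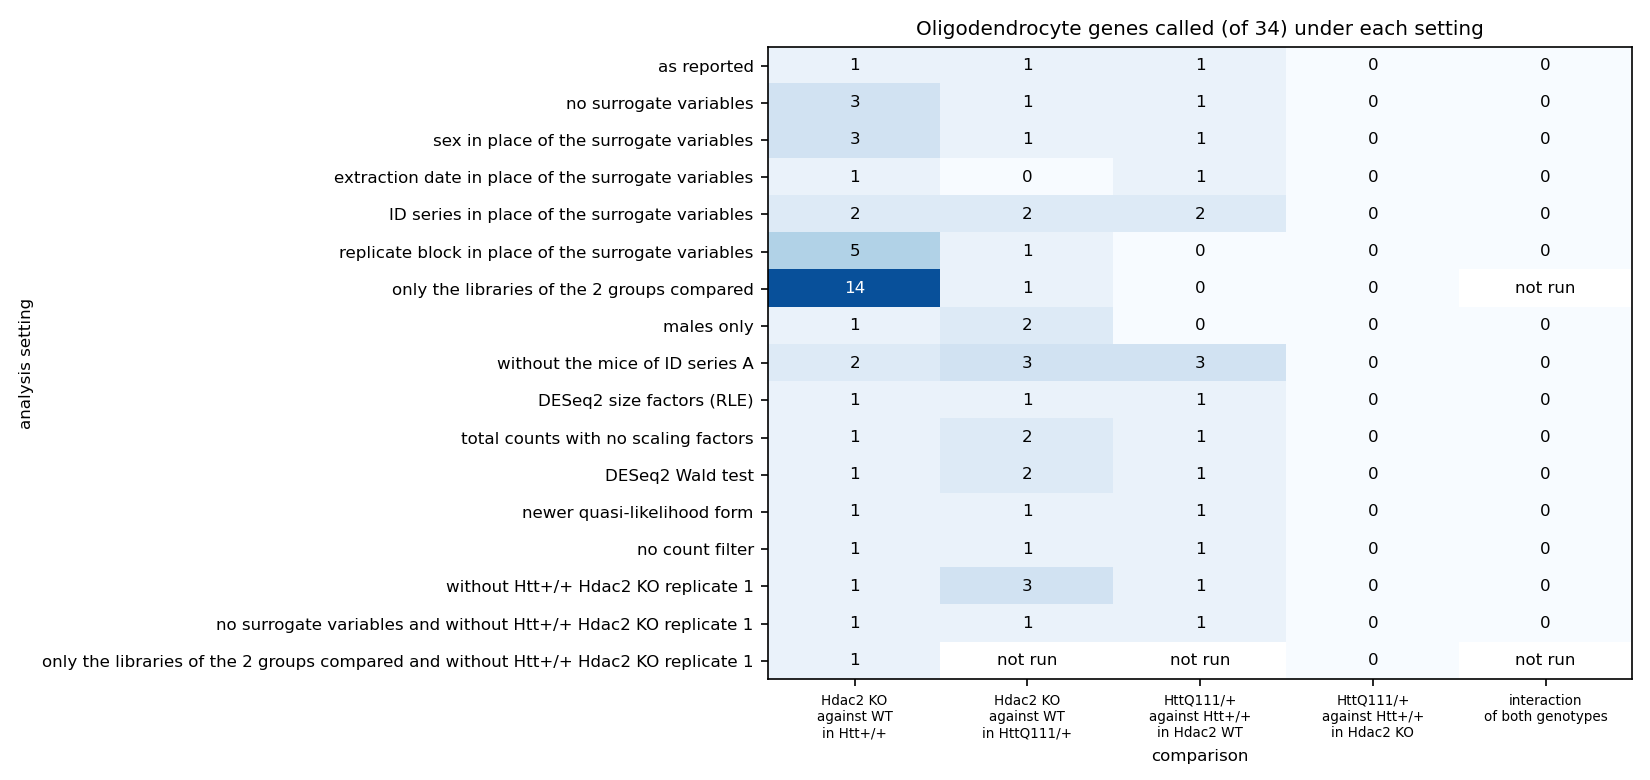
Number of the 34 genes called at an adjusted p under 0.05 under each analysis setting (rows) in each of 5 comparisons (columns), with a darker blue for a higher number. The fit to the 2 groups alone calls 14 genes for the Hdac2 KO in Htt+/+ mice and 1 without replicate 1 of Htt+/+ Hdac2 KO.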

How the data were processed

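The authors deposited raw gene counts. They aligned the reads with GSNAP to GRCm38 and tallied uniquely aligned reads per Ensembl gene interval with BEDTools multibamcov, and they left out 1 library with signs of DNA contamination. Since intervals hold introns and any overlapping gene, and no strand setting is stated, counts of Cnp, Trf and Gpr17, which overlap other well counted genes, are uncertain. Members and lists were chosen with earlier results of these data known. Genes up to 250 bases, spike-ins and mitochondrial rRNA were left out (32863 kept). After the study's methods, a gene entered a contrast when all libraries of either group held 6 or more counts, TMM scaling, surrogate variables (sva 3.50.0, 9 per fit) over all 35 libraries and the edgeR 4.0.16 quasi-likelihood test with Benjamini-Hochberg adjustment over all genes. SE is the fold change over the root of F. The lowest, median and highest value per group were given for Mbp, Mog, Cnp, Mobp, Opalin, Sox10, Olig2, Pdgfra, Cspg4, Gpr17, Enpp6 and members called. Of the further lists, counts were given with called and other genes among the 3 lowest adjusted p, and 1 gene is not reported here. Co-variation p used 100000 permutations within groups (two-sided, numpy 2.4.6). Alternatives included DESeq2 1.42.0, other covariates, scalings and libraries. Gpd1 pairs and fits without replicate 1 of Htt+/+ Hdac2 KO were added after seeing the data. Fits were tested on simulated data.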

Additional observations from a re-analysis of the deposited data

Results flagged for a closer look

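In groups of 7, 8 or 9 mice, 102 group values of members were examined for a library far from the others, and 29 were so, where chance gives about 1 in 20. Of these, 18 belonged to replicate 1 of Htt+/+ Hdac2 KO, which was high for Mog (164 CPM), Mag (391), Cnp (742), Cldn11 (297), Ermn (273), Opalin (60.6), Ugt8a (184), Aspa (67.3), Gjb1 (34.6), Myrf (128), Trf (838), Tspan2 (74.9), Car2 (334), Gpr37 (153), Gsn (132), Qdpr (313), Tmem88b (204) and Enpp6 (23.8). Replicate 2 of Htt+/+ Hdac2 WT was far above its group for Cnp (619), Aspa (50.4), Fa2h (67.2), Gjb1 (28.4), Pdgfra (76.8) and Tmem88b (169). Replicate 7 of HttQ111/+ Hdac2 WT was far above its group for Mbp (1752), Car2 (249) and Qdpr (257). The remaining such libraries were replicate 8 of Htt+/+ Hdac2 WT for Mal (565) and replicate 9 of Htt+/+ Hdac2 KO for Pdgfra (86.1). The members vary together, so these are not independent.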

How the results depend on the processing

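The number of members called changed with the covariates and with the libraries fitted. For the Hdac2 KO in Htt+/+ mice it was 3 with no surrogate variables or with sex, 2 with ID series or without the mice of ID series A, 5 with the replicate block and 14 with only the 2 groups. Replicate 9, the 1 Htt+/+ Hdac2 KO library that shared a date with Htt+/+ Hdac2 WT, was far above its group for Pdgfra (86.1 CPM). With extraction date the number called was 1, Pdgfra and not Gpd1. In HttQ111/+ mice it was 0 with extraction date, 2 with ID series, in males only, with total counts and no scaling or with the DESeq2 Wald test, and 3 without ID series A or without replicate 1 of Htt+/+ Hdac2 KO. For the HttQ111 allele in Hdac2 WT mice it was 2 with ID series, 3 without ID series A, and 0 with the replicate block, with only the 2 groups and in males only. It was 0 in every setting run for the allele in Hdac2 KO mice and for the interaction. With extraction date, Cryab (-0.0012) and Degs1 (-0.034) in HttQ111/+ mice changed direction. Centred within group and date, r with Mog was 0.24 for Opalin, 0.44 for Sox10 and 0.0023 for Ppp1r1b, and Gpd1 with Gpd2 had 0.45. Without the 2 farthest libraries it was 0.28 for Gpr17 and 0.26 for Slc17a7 (0.20 without replicate 1 of Htt+/+ Hdac2 KO). The cause was not tested. Over all genes, calls for the Hdac2 KO were 822 with extraction date and 5094 with only the 2 groups, against 3056, in Htt+/+ mice (1970 in males), and 331 with extraction date, 1854 with the replicate block and 1711 in males, against 2841, in HttQ111/+ mice. For the HttQ111 allele in Hdac2 WT mice, 69 calls became 419 with extraction date, 837 with ID series, 905 without ID series A, 152 with DESeq2, 34 with no count filter, 31 with neither surrogate variables nor replicate 1 of Htt+/+ Hdac2 KO, 13 with the replicate block, 10 in males and 0 with only the 2 groups. They were 0 to 42 for the allele in Hdac2 KO mice and 0 to 7 for the interaction. Of 45 same-numbered pairs, 15 had a correlation of deviations over 0.1 (range -0.27 to 0.41) and 6 correlated best with their own number, so the numbers were not taken to pair mice.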

Other observations

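Gpd2, the mitochondrial glycerol-3-phosphate dehydrogenase that works with Gpd1 in the glycerol phosphate shuttle, was higher where Gpd1 was lower in the Hdac2 comparisons. It ran from 79.8 to 89.8 CPM in Htt+/+ Hdac2 WT and from 112 to 132 in Htt+/+ Hdac2 KO (log2 fold change 0.52 ± 0.043 SE, edgeR adjusted p = 2.95e-10). In HttQ111/+ mice it ran from 82.5 to 122 in Hdac2 WT and from 99.01 to 121 in Hdac2 KO (0.35 ± 0.037 SE, edgeR adjusted p = 6.05e-08). For the HttQ111 allele in Hdac2 WT mice its difference was 0.15 ± 0.040 SE (edgeR adjusted p = 0.104). Gpd2 was chosen after its values were seen. On 27 May, the date Htt+/+ Hdac2 WT and KO mice shared, Gpd2 was 80.6 to 89.6 CPM in 3 WT libraries and 119 in the 1 KO library. On 25 May, shared by HttQ111/+ mice, it was 99.9 and 122 CPM in 2 WT libraries and 120.6 in the 1 KO library, between the WT values.

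Within groups, Gpd1 followed the glucocorticoid-induced genes Tsc22d3 (r = 0.57, permutation p = 0.00052, adjusted p = 0.0026, rho = 0.61, permutation p = 0.00026, adjusted p = 0.0013) and Sgk1 (r = 0.54, permutation p = 0.00144, adjusted p = 0.0036, rho = 0.53, permutation p = 0.0023, adjusted p = 0.00575) across 35 libraries, among 5 pairs added after seeing the data. Centred within group and extraction date, r was 0.52 and 0.44. Without the 2 libraries farthest from the Mog median it was 0.57 and 0.54. The other 3 pairs were not called: Mog (r = 0.28, rho = 0.29), Gpd2 (0.02 and -0.18) and Ppp1r1b (0.37 and 0.35), with permutation p adjusted for r of 0.130, 0.926 and 0.0887 and for rho of 0.12, 0.367 and 0.106. The 5 pairs were chosen from these same data and the adjustment covers only them, so their p-values are descriptions. Other glucocorticoid-responsive genes, such as Fkbp5, were not paired with Gpd1.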
